A study of Chenopodium quinoa with 15 samples.

Results

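The Rubisco small subunit genes of quinoa (Chenopodium quinoa) variety NL-6 were taken as the genes whose closest protein match, as titled in the deposited table, held the words ribulose and carboxylase together with small subunit or small chain. This rule found 8 of the 58522 annotated genes, and all 8 were read in every one of the 15 RNA-seq libraries. The libraries formed 5 groups of 3 replicates. The NaCl leaf group held leaves of 14-day-old soil-grown seedlings that were kept under a 400 mM NaCl solution during 8 hours, and the untreated leaf group held leaves of the same age whose seedlings received water. Roots came from seedlings grown in the dark on MS (Murashige and Skoog) medium, not on soil. These were 2 days old per the sample labels and 3 days old per the study's methods. Stamens and pistils were taken from just opened flowers of plants on soil. No group carried a mutation or transgene, each replicate pooled several seedlings or many flower organs, and the same leaf libraries served as the control for salt and as the leaf of the tissue comparisons. Root therefore differed from the other tissues also in light, growth medium and age, and the flowers came from older plants than the leaves. Tissue cannot be told apart from plant age in these comparisons, nor root from darkness and medium. The growth notes in the labels tie the dark culture to the NaCl treatment, whereas their treatment notes and the study's methods give soil-grown seedlings for it, and these are followed here.

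Rubisco is the enzyme that fixes CO2 in the Calvin cycle of the chloroplast. Its large subunit, which carries the active site, is encoded in the chloroplast genome. The small subunit is encoded by a family of nuclear genes (RBCS), made in the cytosol and imported into the chloroplast, where both subunits assemble. RBCS mRNAs are known as light-dependent and among the most abundant mRNAs of green leaves, and quinoa, an allotetraploid, carries most nuclear genes as a copy from each of its ancestral genomes.

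The 8 genes lay on 3 chromosomes of the NL-6 assembly as deposited. On chromosome 10, CqNL-6_000831 (72404028 to 72407965, plus strand) and CqNL-6_000834 (72385164 to 72386965, plus strand) lay close together. On chromosome 18, CqNL-6_009849 (5504927 to 5505753), CqNL-6_009850 (5502063 to 5503549) and CqNL-6_009852 (5483211 to 5484921) formed a cluster on the plus strand. These clusters occupy matching neighbourhoods, since 18 to 20 of the 33 to 36 best-match entries among the 20 genes on either side recurred around the other cluster. The second matching pair of neighbourhoods held CqNL-6_029844 (chromosome 10, 17061373 to 17062638, minus strand) and CqNL-6_032931 (chromosome 18, 47883478 to 47884623, plus strand), with 18 shared entries of 33 and 36. The remaining copy, CqNL-6_053773 (chromosome 4, 53064808 to 53066912, minus strand), shared 0 neighbouring entries with the other copies and lay 4509 bp from CqNL-6_053774, a glyceraldehyde-3-phosphate dehydrogenase A of the Calvin cycle.

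The annotated transcripts were 732 (CqNL-6_009849) to 1357 bases (CqNL-6_000831) long. The closest match was the same partial small subunit of Chenopodium album for 5 copies, a small chain-like protein of sugar beet for CqNL-6_009850 and CqNL-6_032931, and a named small chain 3 for CqNL-6_029844. All 8 shared the orthology term K01602 with the ninth gene, CqNL-6_000833, a model of 399 bases titled as a hypothetical protein, which overlaps CqNL-6_000834 on the opposite strand and had 0 to 11 reads per library. It is not counted as a member here. The sources used here do not give the counting rule for reads that fit several copies or either strand. How reads were divided among closely similar copies is therefore uncertain, and likewise between CqNL-6_000834 and CqNL-6_000833.

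The libraries held 12499775 to 17019602 counted reads. Marker titles followed the labels. Summed chlorophyll a-b binding proteins (16 genes) reached 19528 to 23229 CPM (counts scaled to a common library size) in leaf, 7.54 to 8.56 in root, 45.6 to 56.2 in stamen and 273 to 390.0 in pistil, with reads of 14 of the 16 in leaf and 13 in NaCl leaf, while root, pollen and carpel markers were highest in root, stamen and pistil. The replicates of each group differed by more than sampling noise. For these bulk tissues, fewer cells of a type and less RNA per cell cannot be told apart.

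In untreated leaves the 8 genes together took 4.63% to 4.85% of all counted reads, and every copy was among the 62 genes with the highest FPKM (the deposited unit that is corrected for transcript length and library total, in which levels of different genes are compared here). CqNL-6_053773 stood at 11518, 11869 and 11815 FPKM and ranked 2, 2 and 3 among all genes. CqNL-6_000831 had 9419.9, 10209 and 10379 FPKM, and CqNL-6_029844 had 8562, 9274 and 8736 FPKM. These 3 copies stood apart from the other 5 in each leaf library, and their ranges did not overlap one another.

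The middle of the order was formed by CqNL-6_009849 at 3963, 3730.3 and 3449.7 FPKM and CqNL-6_032931 at 3162, 3128 and 3307 FPKM. CqNL-6_009850 followed at 2764, 2648 and 2683 FPKM. The ranges of these neighbours were also separate. CqNL-6_009852 (1784, 1957 and 2187 FPKM) and CqNL-6_000834 (1780.0, 2034 and 1476 FPKM) closed the order and overlapped, so they could not be ranked against each other. The leaf level of CqNL-6_053773 thus averaged 11734 ± 189 FPKM and that of CqNL-6_000834 1763 ± 279.5 FPKM (SD, n = 3 each).

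**Figure D1:**
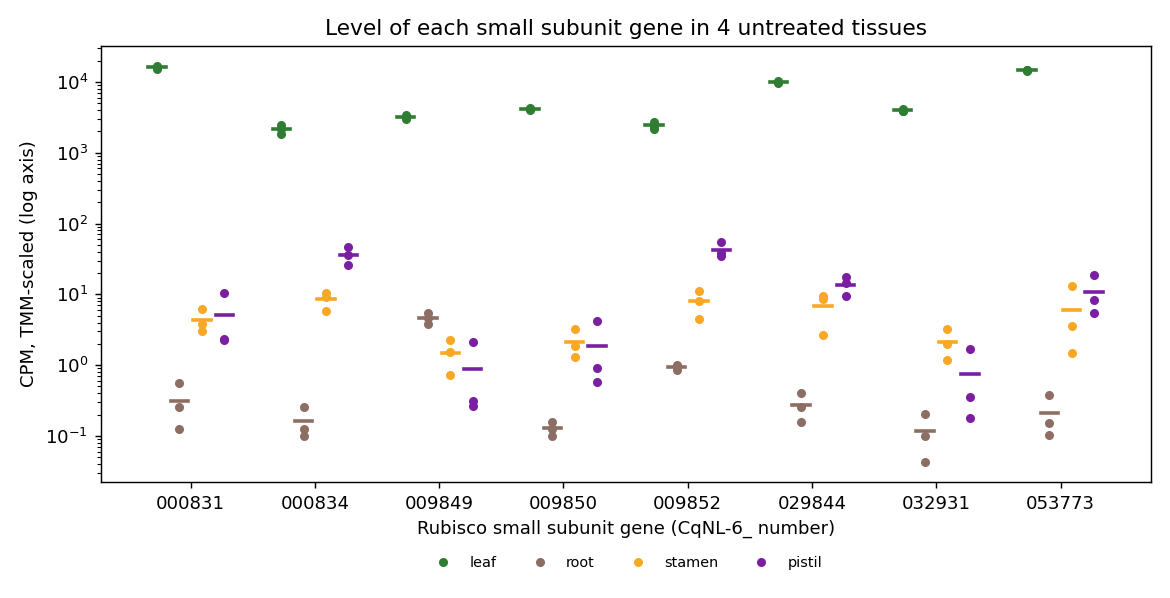
Level of each small subunit gene in leaf, root, stamen and pistil, in CPM scaled by the trimmed mean of M values (TMM), on a log axis. Points are libraries and bars are means (n = 3). Every copy lies far higher in leaf than elsewhere (for CqNL-6_000834, 1814 to 2458 CPM in leaf), with CqNL-6_009849 the copy whose root points lie above its stamen and pistil points.

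All 8 copies were far higher in leaf than in root, stamen and pistil, while the copies that remained in each of the other tissues differed. In leaf, 720039 to 817719 reads per library fell on the family, against 132 to 154 in root, 154 to 417 in stamen and 1769 to 3713 in pistil. Leaf over root was called for 8 of 8 copies (edgeR's quasi-likelihood test, adjusted p under 0.05), where 32.6% of tested genes were called higher in leaf. The log2 fold change ran between 9.44 (CqNL-6_009849, with a standard error, SE, of 0.40, edgeR adjusted p = 1.94e-13) and 15.95 (CqNL-6_053773, SE 0.76, edgeR adjusted p = 9.55e-13). Leaf over stamen was called for 8 of 8 copies with a background of 41.6%, from 7.97 for CqNL-6_000834 to 11.83 for CqNL-6_000831. Leaf over pistil was called for 8 of 8 copies with a background of 31.7%, from 5.83 for CqNL-6_009852 to 12.32 for CqNL-6_032931. The medians over the copies were 14.96, 10.86 and 10.73 log2 units for root, stamen and pistil, where the medians of all tested genes were -0.02, 0.06 and -0.14. Nor did a leaf library overlap root, stamen or pistil in any copy, where 34.4%, 41.7% and 32.9% of tested genes were higher in leaf without overlap. Scaling by the total library size moved the share of higher calls among all called genes by over 10 percentage points in each of these comparisons (leaf over root from 11732 higher and 12937 lower genes to 6971 and 20524, leaf over stamen from 14939 and 13798 to 19077 and 10230, leaf over pistil from 11390 and 13591 to 5669 and 24237), and left all 8 copies called higher in leaf.

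CqNL-6_009849 was the main copy of root, at 8.90 ± 1.65 FPKM (SD, n = 3) where CqNL-6_009852, the next, had 1.29 ± 0.114. It had 7, 6 and 50 reads in the pistil libraries, 16, 5 and 9 in stamen and 109, 89 and 91 in root. In TMM-scaled CPM these were 0.315, 0.265 and 2.09 in pistil, 2.28, 0.733 and 1.51 in stamen, and 5.49, 3.77 and 4.70 in root. The root libraries lay above all stamen and pistil libraries for this copy, and below all of them for the other 7 copies except CqNL-6_032931, where root and pistil overlapped. Among tested genes 43.5% lay higher in pistil than in root without overlap and 35.9% lower, and 37.9% lay higher in stamen than in root and 44% lower. Pistil over root was called higher for 7 copies (background 40.9%) and lower for CqNL-6_009849 alone (background 33.8%), at a log2 fold change of -2.34 (SE 0.43, edgeR adjusted p = 9.34e-05). Stamen over root was likewise called higher for 7 copies (background 38.3%) and lower for CqNL-6_009849 (background 43.2%), at -1.61 (SE 0.53, edgeR adjusted p = 0.00967). For the other 7 copies the log2 fold changes were 2.70 to 7.75 in pistil over root and 3.07 to 5.68 in stamen over root. Without pistil replicate 3, CqNL-6_032931 was not called in pistil over root (edgeR adjusted p = 0.165), and with FPKM and limma CqNL-6_009850 was not called in stamen over root (log2 fold change 0.64, limma adjusted p = 0.103). Scaling by the total library size turned 14696 higher and 12152 lower genes into 18460 and 9425 for pistil over root, and 13758 and 15540 into 7170 and 24037 for stamen over root.

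CqNL-6_009849 made up 70.8%, 64.5% and 68.9% of the small subunit reads of the root libraries, with 95% Clopper-Pearson intervals of 62.9% to 77.8%, 55.9% to 72.4% and 60.3% to 76.7% that cover counting error only. In leaf its share was 5.72% ± 0.501 (SD, n = 3). CqNL-6_009852 came next in root, with 17, 24 and 19 reads and a share of 14.3% ± 3.18, and each of the other 6 copies averaged under 5% there. Root also had the fewest summed chlorophyll a-b binding reads, at 159 to 178 per library over 16 genes.

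In pistil, CqNL-6_009852 and CqNL-6_000834 held most of the family's reads and averaged 72.0 ± 16.6 and 61.3 ± 16.3 FPKM, followed by CqNL-6_029844 at 25.5 ± 7.44 FPKM (SD, n = 3 each). CqNL-6_009852 had 34.7, 38.4 and 54.3 CPM in pistil, against 11.3, 8.06 and 4.53 in stamen (log2 fold change 2.40, SE 0.24, edgeR adjusted p = 4.20e-08). CqNL-6_000834 had 26.2, 35.7 and 46.0 CPM in pistil, against 10.4, 9.24 and 5.87 in stamen (log2 fold change 2.07, SE 0.24, edgeR adjusted p = 2.32e-07). Pistil lay above stamen in every library of both genes, as it did without overlap for 43.5% of tested genes. They were also the copies with the smallest leaf over pistil difference, 5.83 and 5.90 log2 units. CqNL-6_009852 made up 39.0% ± 4.36 and CqNL-6_000834 32.7% ± 3.00 of the small subunit reads in pistil, against 4.28% ± 0.384 and 3.80% ± 0.582 in leaf (SD, n = 3 each). Each is the copy with the lowest coordinates in its cluster, on chromosomes 18 and 10.

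Of the other copies, CqNL-6_029844 was called higher in pistil than in stamen, at 9.40, 14.2 and 17.6 CPM in pistil against 9.41, 8.65 and 2.68 CPM in stamen (log2 fold change 0.97, SE 0.32, edgeR adjusted p = 0.00991). The groups overlapped for this copy, and without stamen replicate 3 it was not called (log2 fold change 0.64, edgeR adjusted p = 0.0541). CqNL-6_032931 was called lower, at 0.180, 0.353 and 1.71 CPM in pistil against 3.28, 1.17 and 2.01 CPM in stamen (log2 fold change -1.49, SE 0.59, edgeR adjusted p = 0.0268). These rest on 4 to 41 reads per pistil library and 8 to 23 per stamen library, and the groups overlapped. In all, 3 copies were called higher in pistil than in stamen (background 42.5%), 1 lower (background 37.0%) and 4 were not called.

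Pistil replicate 3 had the highest pistil value of each copy, and for CqNL-6_000831 its 252 reads stood beside 52 and 51 in the other pistil replicates. In stamen, replicate 1 had 93 reads of CqNL-6_053773, against 10 and 21 in the other replicates. Without pistil replicate 3, 4 copies were called lower in pistil than in stamen (CqNL-6_000831, CqNL-6_009849, CqNL-6_009850 and CqNL-6_032931, log2 fold changes -0.94, -2.35, -1.54 and -2.98, the largest edgeR adjusted p being 0.0225). That fit called 13204 of 36639 tested genes lower. Without stamen replicate 1, CqNL-6_053773 was called higher in pistil (log2 fold change 2.19, edgeR adjusted p = 0.00227), and without pistil replicate 1 as well (1.15, adjusted p = 0.0332). CqNL-6_032931 was no longer called without stamen replicate 1 (edgeR adjusted p = 0.230), stamen replicate 3 (0.0569), pistil replicate 1 (0.0637) or pistil replicate 2 (0.0778). Of these differences between pistil and stamen, only the higher levels of CqNL-6_009852 and CqNL-6_000834 in pistil were called in every setting tried. Scaling by the total library size turned 15271 higher and 13298 lower genes into 25307 and 5868 for pistil over stamen, and called 6 copies higher and 0 lower. The summed chlorophyll a-b binding proteins moved in the same direction as the pistil-rich copies, at 273, 351 and 390.0 CPM in pistil replicates 1 to 3 against 45.6 to 56.2 CPM in stamen, and their part in these differences was not tested.

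**Figure D2:**
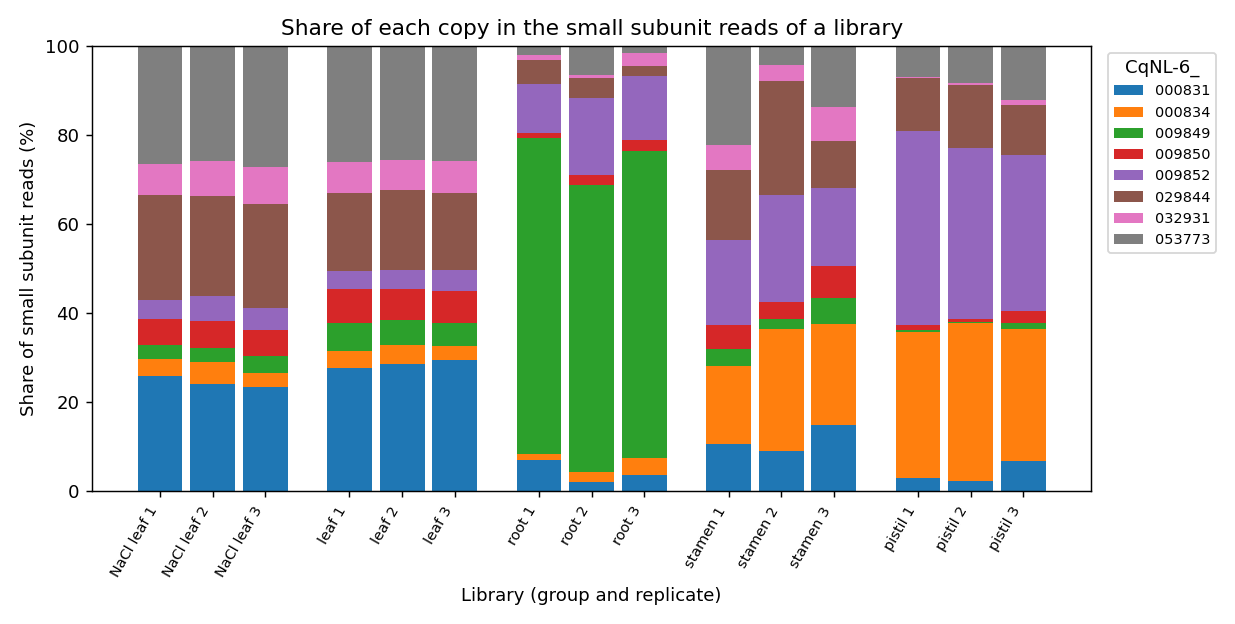
Share of each copy in the small subunit reads of a library (%), one bar per library, 3 libraries per group. CqNL-6_009849 fills 64.5% to 70.8% of the root bars and CqNL-6_009852 with CqNL-6_000834 most of the pistil bars, whereas CqNL-6_000831, CqNL-6_053773 and CqNL-6_029844 fill most of the leaf bars.

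The mix of copies within a library, given in reads with no correction for length, does not depend on the scaling between libraries. In leaf, CqNL-6_000831 (28.5% ± 0.912), CqNL-6_053773 (25.8% ± 0.211) and CqNL-6_029844 (17.6% ± 0.422) took most of the small subunit reads. In stamen the largest shares were 22.5% ± 4.95 for CqNL-6_000834, 20.1% ± 3.35 for CqNL-6_009852 and 17.3% ± 7.74 for CqNL-6_029844, in libraries with 154 to 417 reads of the family. The share differed from leaf without overlap for 7 copies in root, 4 in stamen and 8 in pistil. Each of these 19 differences had the smallest p that an exact two-sided permutation test of 3 against 3 can give, p = 0.10, and an adjusted p of 0.126, so none passed.

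After salt the transcripts of all 8 copies were lower. NaCl leaves gave 3.43% to 3.59% of their reads to the family, against 4.63% to 4.85% in untreated leaves. All 8 copies were called lower in NaCl leaf (edgeR, adjusted p under 0.05), where 22.8% of the 29201 tested genes were called lower. The median log2 fold change of the copies was -0.66 and that of all tested genes 0.04. In all 8 copies the NaCl libraries also lay below the untreated ones without overlap, which 28.6% of tested genes did.

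**Figure D3:**
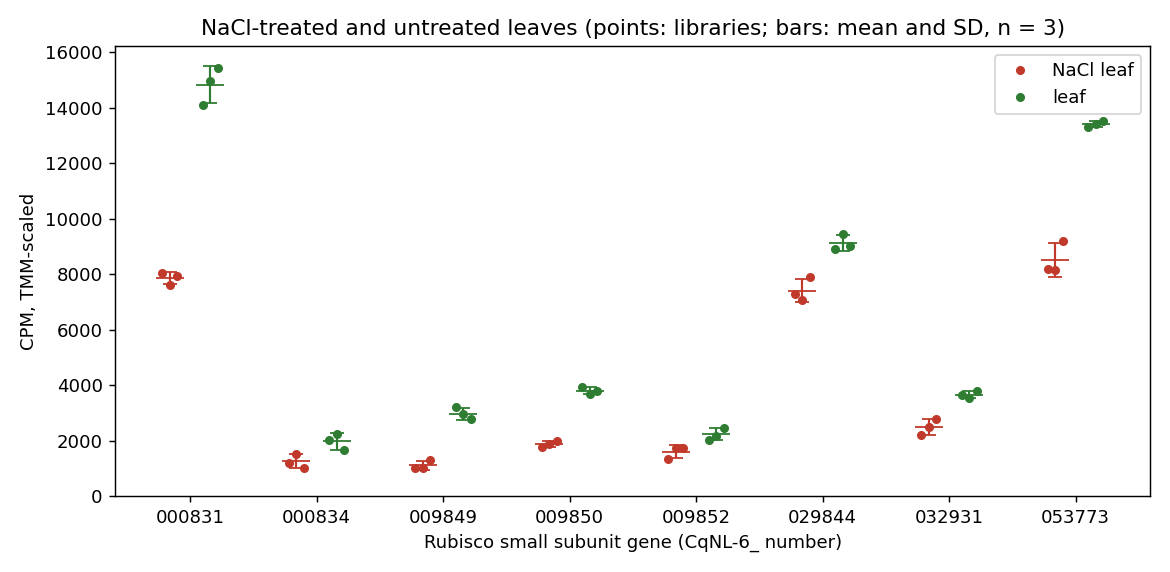
TMM-scaled CPM of each copy in NaCl-treated and untreated leaves, on a linear axis from 0. Points are libraries and bars the mean and SD (n = 3). Every NaCl point lies below the untreated points of its gene, with CqNL-6_000831 at 7617 to 8024 CPM in NaCl leaf against 14101 to 15415 CPM in untreated leaf.

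CqNL-6_009849, the copy that led in root, had the largest decrease in NaCl leaf. Scaled over the 6 leaf libraries it had 996, 1015 and 1299 CPM in NaCl leaf, against 3200.3, 2948 and 2764 CPM in untreated leaf (log2 fold change -1.43, SE 0.14, edgeR adjusted p = 9.94e-05). This left 37.1% of the untreated level. Its neighbour CqNL-6_009850 had 1776, 1883 and 1966 CPM in NaCl leaf, against 3920.3, 3677 and 3777 CPM in untreated leaf (log2 fold change -1.02, SE 0.11, edgeR adjusted p = 0.000147). CqNL-6_000831 had 8024, 7617 and 7934 CPM in NaCl leaf, against 14101, 14956 and 15415 CPM in untreated leaf (log2 fold change -0.92, SE 0.11, edgeR adjusted p = 0.000233). For both the NaCl level was close to 50% of the untreated one, 49.4% and 53.0%, with tight replicates. The 95% intervals of CqNL-6_009849 (-1.74 to -1.12) and CqNL-6_009850 (-1.26 to -0.77) overlapped, and differences between copies were not tested.

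The copy with the highest FPKM in leaf, CqNL-6_053773, had 8192, 8134 and 9207 CPM in NaCl leaf, against 13290.2, 13403 and 13526 CPM in untreated leaf (log2 fold change -0.66, SE 0.11, edgeR adjusted p = 0.00136). CqNL-6_032931 had 2217, 2489 and 2790.4 CPM in NaCl leaf, against 3634, 3519 and 3772 CPM in untreated leaf (log2 fold change -0.54, SE 0.12, edgeR adjusted p = 0.00558). These differences were several times their SE, and the groups were well apart.

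The pair that led in pistil changed less firmly in leaf. CqNL-6_000834 had 1205, 1521 and 1025 CPM in NaCl leaf, against 2015, 2253 and 1657 CPM in untreated leaf (log2 fold change -0.66, SE 0.17, edgeR adjusted p = 0.0114). CqNL-6_009852 had 1322, 1734 and 1741 CPM in NaCl leaf, against 2029, 2179 and 2468 CPM in untreated leaf (log2 fold change -0.48, SE 0.14, edgeR adjusted p = 0.0218). Relative to their means, the untreated replicates of these genes were the most spread of the 8 copies, and the groups did not overlap. The smallest difference was that of CqNL-6_029844, at 7284, 7054 and 7878 CPM in NaCl leaf against 8906, 9441 and 9017 CPM in untreated leaf (log2 fold change -0.30, SE 0.11, edgeR adjusted p = 0.0473). It kept 81.2% of its untreated level.

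The calls of these 3 copies each rested on few libraries. CqNL-6_000834 was not called without leaf replicate 2 (edgeR adjusted p = 0.0542). CqNL-6_009852 was not called without NaCl leaf replicate 1 (edgeR adjusted p = 0.0642), leaf replicate 2 (0.0582) or leaf replicate 3 (0.0914). CqNL-6_029844 was called without NaCl leaf replicate 3 but not without any other single library (edgeR adjusted p of 0.0929 to 0.134). With the total library size 5 copies were called, CqNL-6_000834, CqNL-6_009852 and CqNL-6_029844 (log2 fold change -0.05) not among them. That scaling moved the median of all tested genes to 0.29 and the 7007 higher and 6652 lower genes to 10447 and 4444, and in deposited FPKM, which has the same scaling, CqNL-6_029844 overlapped between NaCl leaf (8536, 8235 and 8855) and untreated leaf (8562, 9274 and 8736). Without the read filter CqNL-6_029844 was not called (edgeR adjusted p = 0.0658). A fit over all 15 libraries called CqNL-6_000834, CqNL-6_009849 and CqNL-6_009850, with CqNL-6_000831 at an edgeR adjusted p of 0.051, and FPKM with limma called CqNL-6_000831, CqNL-6_009849, CqNL-6_009850 and CqNL-6_053773. Every setting tried gave a negative log2 fold change for all 8 copies.

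The share of a copy among the small subunit reads compares the copies within each library. That of CqNL-6_029844 was 23.5%, 22.4% and 23.3% in NaCl leaf, against 17.4%, 18.0% and 17.2% in untreated leaf. The share of CqNL-6_000831 was 25.9%, 24.2% and 23.4% in NaCl leaf, against 27.6%, 28.6% and 29.4% in untreated leaf. Higher shares in all NaCl libraries were thus found for CqNL-6_029844 (5.51 percentage points), and lower shares for CqNL-6_000831 (-4.01), CqNL-6_009849 (-2.30) and CqNL-6_009850 (-1.46). The other 4 copies overlapped between the groups. For each of the 4 that did not overlap the exact two-sided permutation test of 3 against 3 gave p = 0.10, its smallest possible value, and an adjusted p of 0.20 over the 8 copies, so no shift in the mix passed the test. By FPKM the order in NaCl leaf was led by CqNL-6_053773 (8849 ± 420.3), CqNL-6_029844 (8542 ± 310.5) and CqNL-6_000831 (6304 ± 200.3), with the first pair overlapping and CqNL-6_000831 below both (SD, n = 3 each).

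The lists of genes that work with Rubisco are read against the 22.8% of all tested genes called lower in NaCl leaf and the median of 0.04. The list of Rubisco activase and assembly factors, proteins that free the active site of inhibitors or fold and join the subunits, had 8 of 8 tested genes called lower and a median log2 fold change of -0.74. Of the other Calvin cycle enzymes, 14 of 18 tested genes were called lower and 0 higher (median -0.57). In photorespiration, which recycles the product of Rubisco's reaction with oxygen, 7 of 13 tested genes were called lower and 1 higher (median -0.42). Light harvesting and photosystem proteins had 26 of 32 called lower and 0 higher (median -0.47). No gene of the table met the rule for the Rubisco large subunit. With the total library size these counts of lower genes were 6, 11, 2 and 7, with 0, 1, 2 and 0 higher. In that scaling 4444 of all 29201 tested genes were called lower and 10447 higher, so the 22.8% does not apply to these counts.

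The 2 members of each list with the highest mean log2 CPM over all 15 libraries, not over leaf alone, gave the following levels. Rubisco activase CqNL-6_010728 averaged 3686 ± 737 CPM in NaCl leaf and 8092 ± 414 CPM in untreated leaf (log2 fold change -1.13, edgeR adjusted p = 0.000437), and activase CqNL-6_009974 averaged 5607 ± 669 CPM in NaCl leaf and 8635 ± 469 CPM in untreated leaf (-0.62, adjusted p = 0.00325). The glyceraldehyde-3-phosphate dehydrogenase A gene CqNL-6_053774 next to CqNL-6_053773 was lower too (-0.72, edgeR adjusted p = 0.00264), at a size close to its neighbour's. CP12, a small protein that binds Calvin cycle enzymes (CqNL-6_014806), had a log2 fold change of -0.16 and was not called (edgeR adjusted p = 0.293). Of the glycine dehydrogenases of photorespiration, CqNL-6_000378 was higher in NaCl leaf (0.39, edgeR adjusted p = 0.0186), and CqNL-6_009332 had 0.15 and was not called (adjusted p = 0.351). Oxygen-evolving enhancer protein 1 (CqNL-6_044405) and the chlorophyll-binding CP26 (CqNL-6_001257) were lower, at -0.49 and -0.46 (edgeR adjusted p = 0.00654 and 0.0125). Summed chlorophyll a-b binding proteins stood at 16086, 13221 and 16026 CPM in NaCl leaf against 18098, 19528 and 21217 CPM in untreated leaf, with 9 of their 13 tested genes called lower and 0 higher. The part of a general decline of green-tissue transcripts in the small subunit result was not tested.

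**Figure D4:**
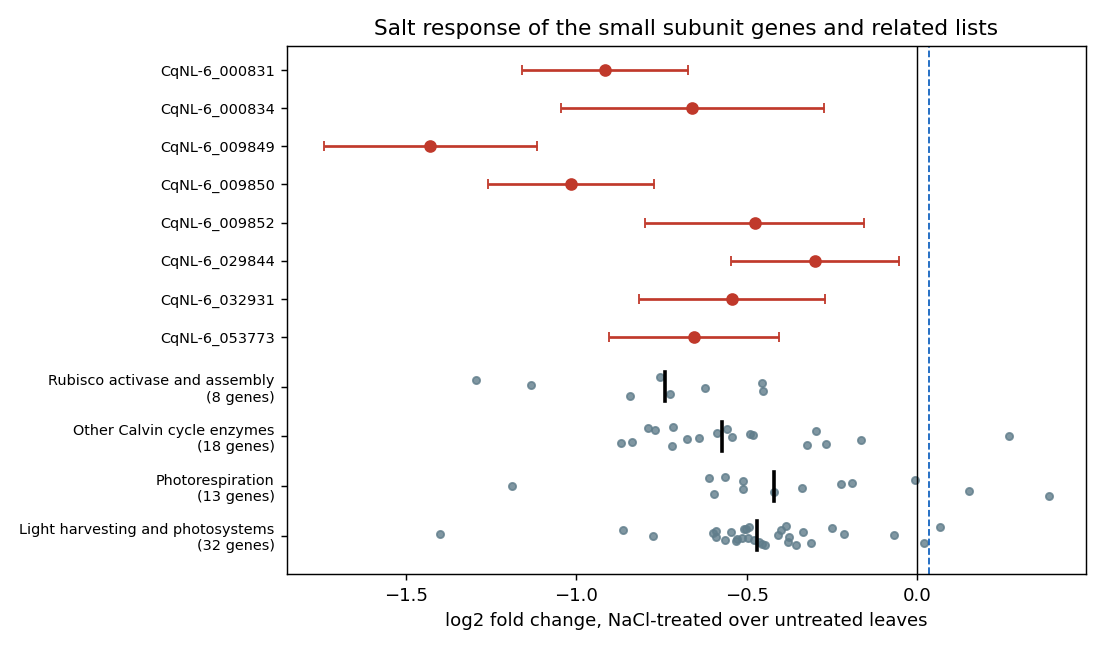
Log2 fold change of NaCl-treated over untreated leaves. Red points are the 8 small subunit genes with 95% confidence intervals, grey points the tested genes of 4 related lists with a black bar at each median, and the dashed line is the median of all tested genes (0.04). All 8 intervals lie below 0, between CqNL-6_009849 at -1.43 and CqNL-6_029844 at -0.30.

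Most genes of these lists were also higher in leaf than in the other tissues. Leaf over root was called higher for 8 of 8 activase and assembly genes, 16 of 18 other Calvin cycle genes, 11 of 15 photorespiration genes and 32 of 32 light harvesting genes, against 32.6% of all tested genes. Their median log2 fold changes were 5.19, 12.08, 3.52 and 12.99, where the small subunit genes had 14.96. Leaf over stamen had medians of 7.83, 9.25, 3.69 and 9.35, with 8, 17, 10 and 32 genes called higher (41.6% of all tested genes), against a median of 10.86 for the small subunit genes. Leaf over pistil had medians of 4.56, 6.14, 4.51 and 5.80 for these lists, with 8, 16, 12 and 32 genes called higher (31.7% of all tested genes), against 10.73 for the small subunit genes. Of the other Calvin cycle genes, 2, 0 and 1 were called lower in leaf than in root, stamen and pistil. For photorespiration genes these counts were 3, 3 and 1, with a lowest log2 fold change of -11.99 in leaf over root. The remaining lists had 0 lower. The 2 pistil-rich copies, at 5.83 and 5.90, were near the median of the light harvesting list, and the other 6 copies, at 9.49 to 12.32, lay above the highest value of that list, 8.63. None of these differences between lists was tested.

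The likeness of each copy's profile to other genes was described by Pearson's r of log2(CPM + 1) over the 15 libraries, among 1222 titled genes of high mean level. These values rest largely on the gap between leaf and the other tissues, since the libraries fall into 5 groups, and carry no test. CqNL-6_000831 was closest to CqNL-6_009850 (r = 0.999), then to a chloroplast carbonic anhydrase, the enzyme that interconverts CO2 and bicarbonate (CqNL-6_031154, r = 0.998). CqNL-6_009850 was closest to this anhydrase, then to CqNL-6_000831 (both r = 0.999). For both copies CqNL-6_032931 came next. CqNL-6_032931 was closest to the same anhydrase (r = 0.999), CqNL-6_009850 (r = 0.998) and a glycolate oxidase of photorespiration (CqNL-6_007503, r = 0.998). CqNL-6_009852 was closest to the glyceraldehyde-3-phosphate dehydrogenases B and A (CqNL-6_052502 and CqNL-6_053774, both r = 0.999). CqNL-6_000834 was closest to a chlorophyll a-b binding protein 6 (CqNL-6_030038) and the oxygen-evolving enhancer protein 1 (CqNL-6_044405), r = 0.998 and 0.997. For CqNL-6_009849 the closest gene was a peroxisomal glycolate oxidase of photorespiration (CqNL-6_052987, r = 0.996). CqNL-6_029844 lay nearest to the triose phosphate translocator, which exports the product of the Calvin cycle from the chloroplast (CqNL-6_043589, r = 0.997), and CqNL-6_053773 to the inner membrane protein PPF-1 (CqNL-6_003349, r = 0.997). Among the copies themselves r was lowest between CqNL-6_009849 and CqNL-6_000834, 0.868.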

How the data were processed

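RNA-seq reads of 15 quinoa NL-6 libraries were cleaned by the authors and mapped on the NL-6 assembly (HISAT2 2.1.0 per the submitters' processing notes). The deposited table holds whole-number counts per gene made with HTSeq, not normalized, and the FPKM values that the authors derived from them. The deposited FPKM equalled the count divided by transcript length and library total to within a relative difference of 6.44e-08. For HTSeq, the version, strand setting and treatment of multiply matching reads were not given in the sources used here. No column was left without a sample.

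TMM scaling and edgeR 4.0.16 were applied to the counts (quasi-likelihood, filterByExpr, Benjamini-Hochberg over all tested genes, threshold 0.05) in R 4.3.3. Salt used the 6 leaf libraries (29201 genes tested) and the tissues the 12 untreated libraries (35954 genes), so leaf CPM differs slightly between these scalings. All 8 small subunit genes passed the read filter in both. The SE was taken as the absolute log2 fold change over the square root of the edgeR F statistic. The 95% intervals were built from this SE, so both restate the test and are not separate measures of precision. The labels do not say whether replicates came from separate plantings, and p-values weigh group differences against the spread between these samples only. Shares were tested by exact permutation with scipy 1.17.1. Depth limits the copies with few reads outside leaf, and Clopper-Pearson intervals cover counting error only.

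The members, lists and tests were chosen with earlier results of these data known. Named were all small subunit genes, the 2 members of each list with the highest mean level over all 15 libraries, and the titled genes most like each copy. Lists were made from title words. A TCP12 factor and phosphoglycerate kinases that matched the search words by accident were left out by their titles, not their values. Alternatives were DESeq2 1.42.0 (size factors and Wald test), upper quartile and total library scaling, no read filter, a replicate block, all 15 libraries, FPKM with limma 3.58.1 on log2(FPKM + 1), and each library left out. Of the member identifiers, 0 matched the reference gene table. The tests were run on simulated counts first.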

Additional observations from a re-analysis of the deposited data

How the results depend on the processing

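The higher level of all 8 copies in leaf than in root, stamen and pistil was called in every setting, and the salt log2 fold changes kept their sign. The number of copies called lower in NaCl leaf was 8, but 5 with the total library size, 3 with all 15 libraries in the fit, 4 with FPKM and limma and 7 without the read filter, and it was 5 to 8 with each library left out. Of 29201 tested genes, 6652 were called lower in the main fit, 4444 with the total library size and 4497 with FPKM and limma. With all 15 libraries 7514 of 36293 were, and without the read filter 6679 of 39007. With each library left out 5354 to 6753 genes were called lower. For pistil over stamen, 3 copies were called higher, but 6 with the total library size and 5 with FPKM and limma. The higher calls among all 35954 tested genes rose as well, from 15271 to 25307 and 25116 in these settings. The 1 copy called lower became 0 with upper quartile scaling, the total library size and FPKM with limma, and 0 to 4 with each library left out. In this comparison the direction turned for CqNL-6_009849 (1.11 with the total library size and 0.40 with FPKM), CqNL-6_009850 (0.094 with upper quartile scaling, 1.65 with the total library size and 0.74 with FPKM) and CqNL-6_032931 (0.35 with the total library size and 0.032 with FPKM). With single libraries left out the log2 fold change was -0.94 to 0.58 for CqNL-6_000831 and -1.54 to 0.30 for CqNL-6_009850. The share of CqNL-6_000834 in NaCl leaf minus leaf was -0.346 to 0.559 percentage points and that of CqNL-6_029844 in stamen minus leaf -4.45 to 3.18. The cause of these changes was not tested.

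Same-numbered replicates did not deviate together (correlations of -0.115 to 0.0933), so the numbers were not used as pairs. With the replicate number as a block, 7 copies were called lower in NaCl leaf, CqNL-6_029844 being lost (log2 fold change -0.30, edgeR adjusted p = 0.0972). This fit called 6132 of all 29201 tested genes lower.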
